A study of Mus musculus with 6 samples.

Results

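The 2 arrays of experiment 3 were compared with the 4 arrays of experiments 1 and 2 in a study of neural commitment of mouse embryonic stem cells with and without knockdown of Geminin. These 2 of the 6 arrays were selected on measured values: they had stood apart from the others in earlier results of the same data, and the contrast is therefore given as a description with no p-value. All 6 cultures were derivatives of E14TG2a embryonic stem cells of 129P2 background, carried a Gmnn hairpin of the shRNAmir kind, built into a microRNA and switched on by doxycycline (Dox), and had spent 2 days in N2B27. This medium holds no serum and lets embryonic stem cells turn to the neural lineage. Each of the 3 independent experiments had a knockdown culture (GemKD, 500 ng of Dox as the labels write it) and an uninduced control without Dox. The hairpin was shRNAmir 11 in experiments 1 and 3. In experiment 2 it was shRNAmir 9, carried by another line. Each line is described by the labels only by its hairpin, and each culture was read on 1 Affymetrix Mouse Genome 430 2.0 array. The 3 experiments differ in everything that differs between independent experiments, and culture day, passage and hybridisation cannot be told apart from the experiment number.

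Embryonic stem cells that leave self-renewal first lose the naive pluripotency factors, pass through a primed state that resembles the postimplantation epiblast and is marked by Fgf5 and Otx2, and then take on neural identity with Sox1 and Pax6. Retinoic acid, made from vitamin A by retinaldehyde dehydrogenases and sensed by nuclear receptors, promotes neural differentiation of such cultures and switches on Stra8, the Meis genes and the first genes of the Hoxa and Hoxb clusters. Epithelial identity, with E-cadherin and tight junctions, is shared by naive and epiblast cells, and is opposed by the repressor Zeb1.

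The medians of signal over all probe sets were close on the 6 arrays, from 59.33 to 60.89. Gene values are deposited signals, with the GemKD array given first wherever a pair is printed, and differences are on the scale of log2(signal + 16), adjusted for treatment, so that they understate changes of dim genes. Standard errors (SE) treat the 6 arrays as separate samples, although the pair in experiment 3 is a single experiment. A gene was counted as apart where it differed at least 2-fold and both arrays of experiment 3 lay above, or both below, the other 4. Of 14185 genes tested, 103 (0.726%) were apart and higher in experiment 3 and 245 (1.73%) were apart and lower. At least 4-fold differences were found for 12 and 27 of them. The median difference over all genes was -0.04. Of the genes apart, 76 higher and 189 lower ones also differed 2-fold without overlap from each of experiments 1 and 2 taken singly. Close to the threshold, Tmem198 lay inside at 1.0002 and Jade2 outside at 0.996, and on the lower side Herpud1 lay inside at -1.0003 and Fam43a outside at -0.9992. With the added constant of 16 raised to 64 the counts were 44 and 116. They were 155 and 258 with the control array of experiment 3 left out.

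The same count between pairs of experiments gives the yardstick. Experiment 3 differed from experiment 1, which carried the same hairpin, by 120 higher and 253 lower genes. It differed from experiment 2 by 98 higher and 240 lower genes. Experiments 2 and 1, with different hairpins in different lines, were parted by 8 genes in each direction. The SD of the log2 differences over the 11187 brighter genes was 0.396 and 0.387 for experiment 3 and 0.141 between experiments 2 and 1. In the control arrays alone, with 1 array on each side, 457 and 425 genes differed 2-fold in experiment 3 from experiments 1 and 2, and 55 differed between experiments 2 and 1. In the GemKD arrays alone, the counts were 449, 443 and 48. Thus the larger number of genes in experiment 3 was present without Dox as well as with it.

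**Figure D1:**
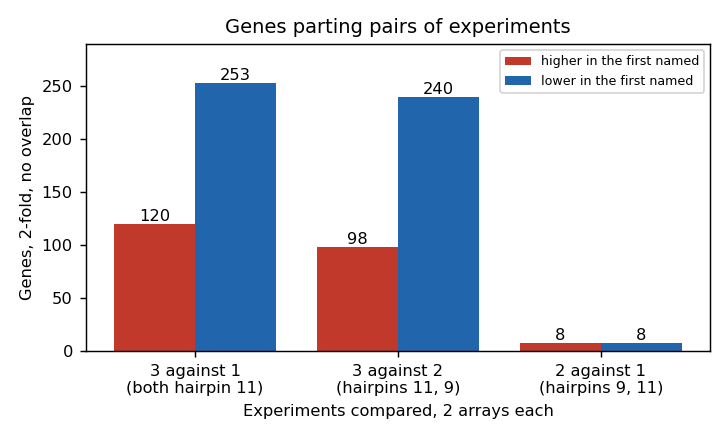
Number of genes (vertical axis) that differ at least 2-fold with no overlap of arrays between 2 experiments of 2 arrays each, in red where higher and in blue where lower in the experiment named first. Both comparisons with experiment 3 reach 98 to 120 higher and 240 to 253 lower genes, and experiments 2 and 1 differ by 8 and 8.

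**Figure D2:**
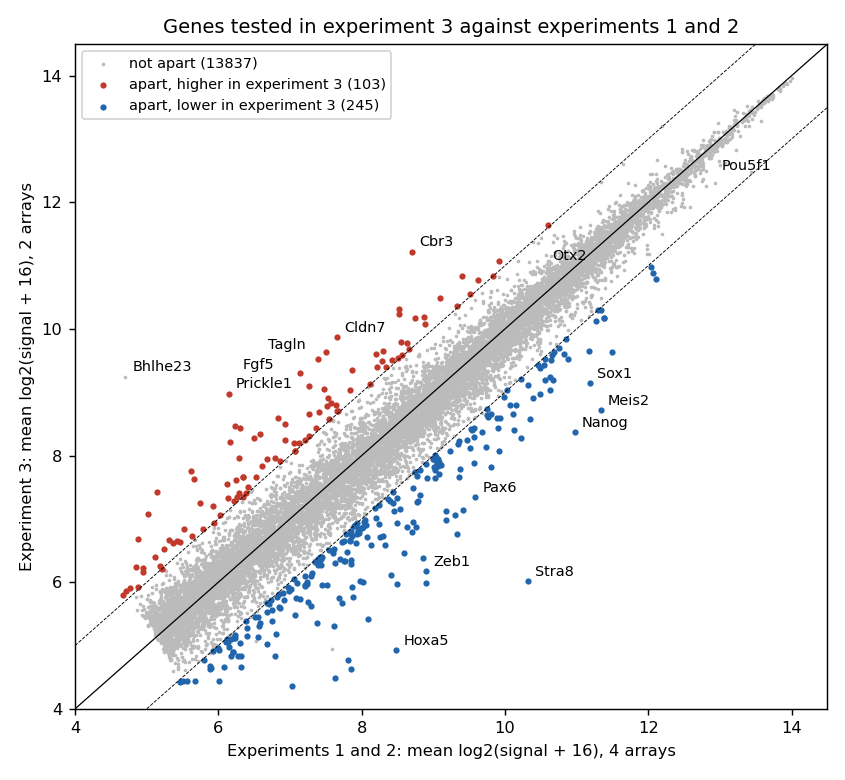
Each point is 1 of 14185 genes, with the mean log2(signal + 16) of the 4 arrays of experiments 1 and 2 on the horizontal axis and that of the 2 arrays of experiment 3 on the vertical axis. The solid line marks equality and the dashed lines 2-fold. Red and blue points are the 103 and 245 genes apart; Bhlhe23 lies far off the line through 1 array and is not apart.

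Experiment 2, the only one with the shRNAmir 9 line, can be told from experiments 1 and 3 by a gene outside the Geminin pathway. Line and experiment cannot be separated here. Eif2s3y, a translation initiation factor gene of the Y chromosome, read 9.85 and 9.04 in experiment 1, 1391 and 1474 in experiment 2, and 18.97 and 10.9 in experiment 3. Experiment 3 thus had the low level of experiment 1, the other experiment with shRNAmir 11, and only experiment 2 was high. Uty and Kdm5d, also Y-linked, were dim on all arrays. They differed by 0.01 and -0.07 between experiments 2 and 1, and by 0.26 and 0.27 between experiment 3 and the others. Over the 16 genes that parted experiments 2 and 1, experiment 3 was nearer to experiment 1 for 8 and to experiment 2 for 8. Only Eif2s3y, Mid1 and Gm1673, all nearer experiment 1, read above 129.88 on any array, so this count rests largely on dim genes. Mid1, which spans the pseudoautosomal boundary in mouse, read 585 and 432 in experiment 1, 1743 and 1119 in experiment 2, and 363 and 405 in experiment 3, and is counted among the lower genes through the high values of experiment 2. The targeted gene itself, Gmnn, read 983 and 3557 in experiment 1, 1669 and 3477 in experiment 2, and 1269.6 and 3463 in experiment 3. It was lower with Dox in all 3 experiments, and in experiment 3 its GemKD value lay between the other 2 and its control value just below them (difference -0.02 ± 0.27, SE, n = 6 arrays). Medians of the differences per chromosome ran from -0.066 to -0.011 over 20 chromosomes.

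The cells of experiment 3 had lower transcript levels of naive pluripotency factors, while the core factors differed little. Nanog, the homeodomain factor that stabilises self-renewal, read 2434 and 1713 in experiment 1, 2418 and 1565 in experiment 2, and 341 and 288 in experiment 3. Both arrays of experiment 3 lay below all others, at 6.09-fold lower (log2 difference -2.61 ± 0.11, SE, n = 6 arrays). Klf4, a reprogramming factor of the naive network, read 429 and 332 in experiment 1, 441 and 402 in experiment 2, and 108 and 82.1 in experiment 3, again without overlap (-1.91 ± 0.10). Zfp42 (Rex1), a standard reporter of the naive state, read 4392 and 3827 in experiment 1, 4838 and 4094 in experiment 2, and 1992 and 1745 in experiment 3 (-1.19 ± 0.06). It stayed well detected in experiment 3, at less than the lowest value elsewhere.

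The gene lists here and below were chosen with earlier results of these data known, so their counts are descriptions. They stand beside 1.73% apart and lower and 0.726% apart and higher over all 14185 genes, with a median of -0.04. Of the 23 tested members of the naive list, 9 were apart and lower, 0 were apart and higher, and the median was -0.84. The further 6 were Jam2, a junctional adhesion molecule, at -2.52, Socs3, the feedback inhibitor of LIF signalling, at -1.42, Klf2 at -1.15, Tfcp2l1 at -1.14, the imprint guardian Zfp57 at -1.09 and Dppa3 at -1.04. Dppa3 was itself uneven between the other experiments, at 123 and 113 in experiment 1 against 271 and 222 in experiment 2. Not all of the network was lower: Esrrb, an orphan nuclear receptor of the naive state, read 423 to 537 in experiments 1 and 2 against 486 and 454 in experiment 3 (-0.02 ± 0.08), and Fgf4 differed by 0.28. Bulk arrays do not tell fewer cells of a kind from less RNA per cell, here or in any group below.

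Pou5f1 (Oct4), the central factor of pluripotency, read 7454 and 7387 in experiment 1, 7482 and 7711 in experiment 2, and 7338 and 7403 in experiment 3. Its partner Sox2 read 5785 and 5781 in experiment 1, 5875 and 6009 in experiment 2, and 5334 and 5033 in experiment 3. Their differences were -0.03 ± 0.02 and -0.18 ± 0.04, and Sox2 was slightly lower on both arrays of experiment 3 than on the other 4. Of 14 tested members of the shared pluripotency list 0 were apart, with a median of -0.14 and a range from -0.76 (the LIF receptor subunit Il6st) to 0.72 (Foxd3).

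Markers of the primed epiblast were on the higher side for several members, without a common shift of the list. Fgf5, a growth factor of the postimplantation epiblast, read 93.8 and 121 in experiment 1, 161 and 132 in experiment 2, and 664 and 577 in experiment 3, a 4.51-fold higher level (2.17 ± 0.26), and its second probe set differed by 1.70. Otx2, the homeodomain factor that drives the exit to the primed state, read 1247 and 1227 in experiment 1, 1685 and 1673 in experiment 2, and 2737 and 2781 in experiment 3. Its arrays did not overlap, but at 1.9-fold (0.93 ± 0.22) it missed the 2-fold limit, and experiment 2 lay between the other experiments. Pou3f1 (Oct6), a POU factor of epiblast and early neural cells, ran at 2853 to 3737 in experiments 1 and 2 against 6224 and 6158 in experiment 3 (0.95 ± 0.11), and Etv4 at 212 to 287 in experiments 1 and 2 against 458 and 436 in experiment 3 (0.90 ± 0.16). The tight junction gene Cldn6, which marks the epiblast, ran at 306 to 429 in experiments 1 and 2 against 1222 and 1301 in experiment 3 (1.80 ± 0.19).

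Of 19 tested primed genes 2 (Fgf5 and Cldn6) were apart and higher, 2 were apart and lower, and the median was 0.10. The lower ones were Wnt8a at -2.02 and Dnmt3l, a cofactor of the de novo DNA methyltransferases, at 4206 to 4662 in experiments 1 and 2 against 1814 and 1708 in experiment 3 (-1.31 ± 0.02). Dnmt3a and Dnmt3b differed by 0.28 and 0.19. Tet2, a 5-methylcytosine dioxygenase that was looked at after its value was seen, ran at 834 to 939.6 in experiments 1 and 2 against 234 and 189 in experiment 3 (-1.98 ± 0.11).

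**Figure D3:**
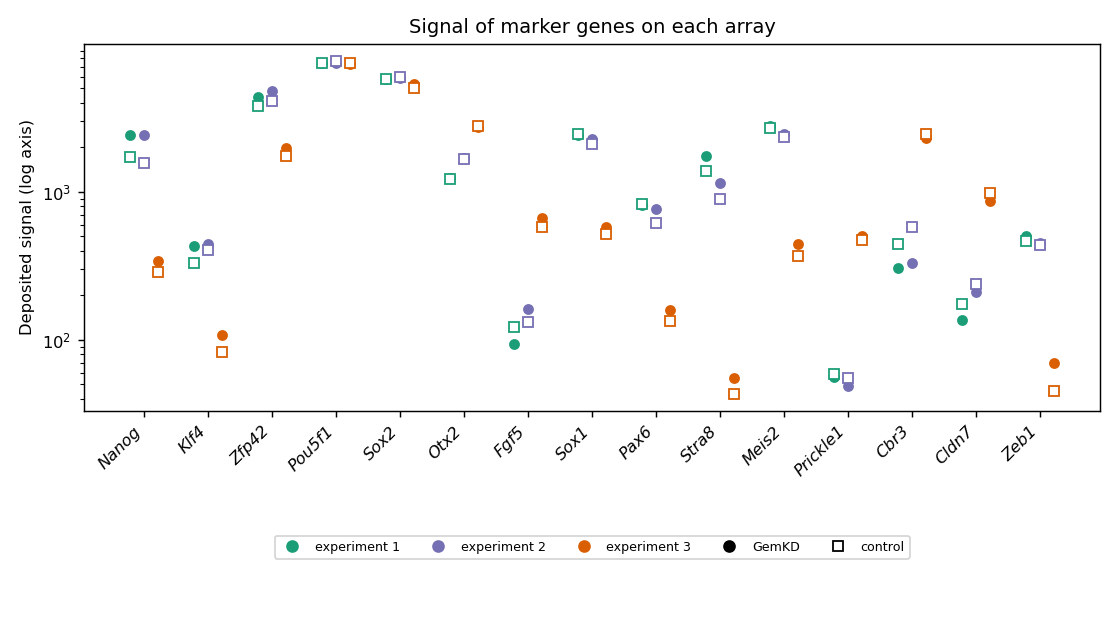
Deposited signal (log axis) of 15 genes on each of the 6 arrays, coloured by experiment, with filled circles for GemKD and open squares for control. The orange points of experiment 3 lie below the others for Nanog, Klf4, Zfp42, Sox1, Pax6, Stra8, Meis2 and Zeb1, above them for Otx2, Fgf5, Prickle1, Cbr3 and Cldn7, close to them for Pou5f1 and slightly below them for Sox2.

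The labels name the material as neurectoderm, and its defining genes Sox1 and Pax6 were detected in experiment 3 at lower levels. Sox1, the earliest factor restricted to the neural plate, read 2436 and 2443 in experiment 1, 2287 and 2108 in experiment 2, and 577 and 523 in experiment 3. That is 4.12-fold lower (-2.04 ± 0.08), with a second probe set at -1.41. Pax6, a paired box factor of neural progenitors, read 821 and 823 in experiment 1, 769 and 614 in experiment 2, and 158 and 135 in experiment 3, 4.74-fold lower (-2.24 ± 0.15). Olig3, a basic helix-loop-helix factor of the dorsal neural tube, read 320.2 and 157 in experiment 1, 283 and 147 in experiment 2, and 6.40 and 11.4 in experiment 3, below the filter signal of 20.14 in experiment 3 only. Olig3 thus passed the filter only through experiments 1 and 2, and the size of its difference depends on the added constant. The neural cell adhesion gene Ncam1 ran at 366 to 456 in experiments 1 and 2 against 105 and 110.2 in experiment 3 (-1.77 ± 0.09). N-cadherin (Cdh2) read 1073 and 947 in experiment 1, 1117 and 837 in experiment 2, and 540.0 and 451 in experiment 3, without overlap but just short of 2-fold (-0.98 ± 0.07).

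Other neural genes did not follow. Nes, the intermediate filament of progenitors, read 267 and 249 in experiment 1, 245 and 258 in experiment 2, and 283 and 264 in experiment 3 (0.10 ± 0.05), and the SoxB1 factor Sox3 ran at 959 to 1237 in experiments 1 and 2 against 1428 and 1315 in experiment 3, higher by 0.35. Of 25 tested early neural genes 4 were apart and lower, and 1, Prom1 (CD133) at 1.32, was apart and higher. These shares were 1.73% and 0.726% over all genes. The median was -0.27 (-0.43 without the control array of experiment 2). Of the 21 genes of the anterior patterning list 19 had a probe set, and only 8 passed the filter on low signal. Of these 8, 2 were apart and lower: Sp8 at -1.94 and Lhx2 at -1.13. Irx3, of the posterior neural plate, and En2, of the border of midbrain and hindbrain, differed by -0.68 and -0.98. Among 21 neuronal and proneural genes 3 were apart and lower (1.73% over all genes), Ebf1 at -1.95, Insm1 at -1.45 and the RNA-binding Elavl4 at -1.06. Neurofilament light chain (Nefl) and Neurod1 differed the other way, by 0.76 and 0.74, and the median was 0.01.

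Genes known as targets of retinoic acid were among those furthest below experiments 1 and 2. Stra8, named for its induction by retinoic acid and needed for entry into meiosis, read 1742 and 1385 in experiment 1, 1152 and 899 in experiment 2, and 55.0 and 42.8 in experiment 3. With 19.7-fold (-4.30 ± 0.30) it had the most negative difference of all 14185 genes. Meis2, a homeodomain cofactor of Hox proteins, read 2803 and 2690.1 in experiment 1, 2451 and 2350.0 in experiment 2, and 441 and 369 in experiment 3 (-2.62 ± 0.11), and its 4 probe sets ran from -2.64 to -2.34. Its relative Meis1 ran at 189 to 254 in experiments 1 and 2 against 35.7 and 41.7 in experiment 3 (-2.11 ± 0.14), with a dimmer probe set at 0.24.

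Among components of the pathway, 2 of 3 receptor genes and the binding protein gene Crabp1 were apart and lower, and the enzymes of synthesis differed little. Rarb, the receptor gene that is itself induced by retinoic acid, ran at 128 to 178 in experiments 1 and 2 against 22.2 and 28.1 in experiment 3 (-2.01 ± 0.20). Rara ran at 192 to 282 in experiments 1 and 2 against 83.2 and 104 in experiment 3 (-1.20 ± 0.22) and Rarg at 2187 to 2302 in experiments 1 and 2 against 1663 and 1685 in experiment 3 (-0.41 ± 0.03). Rarg thus differed least of the 3 receptor genes. The cellular binding protein Crabp1 differed by -1.23 and its relative Crabp2 by 0.12. Dhrs3, which turns retinaldehyde back to retinol, differed by -1.25, and Cyp26a1, which degrades retinoic acid, by -0.73, short of 2-fold. Aldh1a2, the main enzyme of synthesis in the embryo, read 145 and 127 in experiment 1, 166 and 141 in experiment 2, and 161 and 129 in experiment 3 and differed by 0.00, and Rdh10, which acts one step earlier, by 0.05. Of 18 tested genes of the retinoic acid list 8 were apart and lower and 0 apart and higher, with a median of -0.86. Over all genes these shares were 1.73% and 0.726%. The list and its markers Stra8 and Meis2 were chosen with earlier results of these data known. Of the 8, Hoxb1 was below the filter signal of 20.14 on both arrays of experiment 3, and Dhrs3 on its control array. The count therefore supports nothing beyond the values.

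The Hox genes apart and lower included several of the 3′ ends of the Hoxa and Hoxb clusters, which are known to respond first to retinoic acid. Hoxb1, of the fourth rhombomere, read 256 and 178 in experiment 1, 218 and 106 in experiment 2, and 8.88 and 4.32 in experiment 3 (-3.13 ± 0.28). Hoxb2 read 300.4 and 219 in experiment 1, 203 and 139.9 in experiment 2, and 11.1 and 11.5 in experiment 3 (-3.04 ± 0.31). Hoxa3 read 562 and 565 in experiment 1, 430.4 and 328 in experiment 2, and 58.9 and 37.7 in experiment 3 (-2.91 ± 0.31), and a second Hoxa3 probe set differed by -2.10. Hoxa5 read 385 and 359 in experiment 1, 364 and 272 in experiment 2, and 15.7 and 13.1 in experiment 3 on its brightest probe set (-3.56 ± 0.14), while another probe set of similar brightness differed by -0.14, so the level of Hoxa5 is unsettled.

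Of 39 Hox genes 33 had a probe set and 17 passed the filter. Of the 17, 7 were apart and lower (1.73% over all genes), with a median of -0.44 (-0.18 without the GemKD array of experiment 3). All of the 7 except Hoxa3 read below the filter signal of 20.14 on both arrays of experiment 3. These 6 therefore passed the filter only through experiments 1 and 2, the sizes of their differences depend on the added constant, and the count of 7 supports nothing beyond their values. Beside the 4 above these were Hoxa2 at -1.30, Hoxa4 at -1.35 and, from the other end of the cluster, the dim Hoxa13 at -1.26. Hoxa7, Hoxa9, Hoxa10 and Hoxa11 differed by -0.23, 0.04, -0.38 and 0.02, and Hoxb3 by 0.28. All of these except Hoxa7 were dim on every array.

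**Figure D4:**
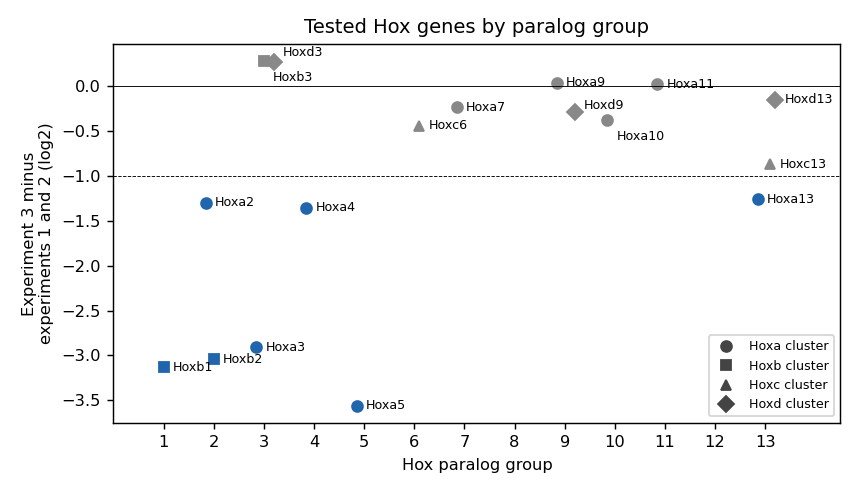
Difference of experiment 3 from experiments 1 and 2 (log2, vertical axis) for the 17 tested Hox genes against their paralog group, with the cluster shown by the symbol. Blue marks the 7 genes apart; 6 of them lie in groups 1 to 5 of the Hoxa and Hoxb clusters, and the dashed line marks 2-fold.

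Promoters are shown for 2 retinoic acid genes, since the receptor gene Rarb and the degradation gene Cyp26a1 are known direct targets of the pathway. The letters are the 110 bases before the start site in RefSeq (GRCm38.p6), 5′ to 3′ on the gene's strand, with capitals for the retinoic acid direct repeat, that is 2 copies of the core sequence bound by the retinoic acid receptor, 5 bases apart, searched on both strands. The Rarb stretch lies at chr14:16575477-16575586 (minus strand) and the Cyp26a1 stretch at chr19:37697698-37697807 (plus strand).
Rarb: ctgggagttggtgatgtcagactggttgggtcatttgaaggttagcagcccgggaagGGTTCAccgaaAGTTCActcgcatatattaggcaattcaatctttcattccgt
Cyp26a1: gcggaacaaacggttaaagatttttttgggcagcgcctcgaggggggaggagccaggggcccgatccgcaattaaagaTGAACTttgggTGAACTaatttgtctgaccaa
The repeat was found in the 250 bases before the start of 28 of 27025 genes (0.104%), of 7 of the 11409 tested genes with a sequence (0.0614%), and of 1 of 192 lower genes, Rarb. A match is a description of the letters, and the other lower genes were not searched beyond this window.

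Among the 103 higher genes were 17 that are known from epithelia; they were picked because they were higher, so their direction is no finding. Cldn7, a claudin of tight junctions, read 136 and 174 in experiment 1, 209 and 238 in experiment 2, and 865 and 980.5 in experiment 3, 4.65-fold higher (2.22 ± 0.25). Esrp1, a splicing regulator specific to epithelia, ran at 525 to 811 in experiments 1 and 2 against 1784 and 1819.9 in experiment 3 (1.43 ± 0.16), and Ap1m2, the epithelial subunit of a clathrin adaptor, at 102 to 189.9 in experiments 1 and 2 against 544 and 515 in experiment 3 (1.82 ± 0.26). Rab25, an epithelial GTPase of recycling endosomes, ran at 171 to 205 in experiments 1 and 2 against 377 and 427 in experiment 3 (1.03 ± 0.10), and the tight junction proteins Ocln, Marveld2 and Marveld3 differed by 1.03, 1.08 and 1.58. The keratin Krt18 differed by 1.49, the serine protease St14 by 1.21 and the receptor tyrosine kinase Epha1 by 1.68. Mal2, a protein of apical transport, ran at 15.3 to 27.1 in experiments 1 and 2 against 165 and 146 in experiment 3 (2.28 ± 0.17). Its mean in experiments 1 and 2 was 19.5, below the filter signal of 20.14, so Mal2 passed the filter only through experiment 3. The size of its difference depends on the added constant, at 2.96 with a constant of 1 and 1.4 with 64. The others of the 17 were Cldn6, Bspry, Kdf1, Galnt3, Esrp2 and Prom1. Epithelial genes of the fixed lists that were not apart included Epcam at 0.11, Cldn3 at 0.09, Jup (plakoglobin) at -0.11, Krt7 at 0.23 and Dsp (desmoplakin) at -0.64. Others not apart were further on the higher side, with Cldn4 at 0.69, Krt8 at 0.62, Dsg2 at 0.55, F11r at 0.52 and Cgn at 0.44.

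Zeb1, a zinc finger repressor of epithelial genes, was lower on its brightest probe set. This read 502 and 463 in experiment 1, 453 and 434 in experiment 2, and 69.3 and 45.3 in experiment 3 (-2.73 ± 0.13). Dimmer probe sets of Zeb1 differed by 0.04, -1.16 and -0.02, so the value of Zeb1 depends on the probe set. For Zeb2 the brightest probe set differed by 0.12, while others differed by -1.47 and -1.79, so the value of Zeb2 depends on the probe set. The major cadherin of the epiblast, Cdh1, read 5209 and 5611 in experiment 1, 5773 and 5997 in experiment 2, and 7610.3 and 6973 in experiment 3, without overlap but higher by only 1.29-fold (0.37 ± 0.09).

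The upstream letters of 3 of these epithelial genes are shown because Zeb1 is known to bind the E-box CAGGTG, here in capitals together with its reverse complement CACCTG. All are the 110 bases before the RefSeq start (GRCm38.p6), at chr9:21312334-21312443 (minus strand) for Ap1m2, chr3:88548280-88548389 (minus strand) for Rab25 and chr11:69965311-69965420 (plus strand) for Cldn7.
Ap1m2: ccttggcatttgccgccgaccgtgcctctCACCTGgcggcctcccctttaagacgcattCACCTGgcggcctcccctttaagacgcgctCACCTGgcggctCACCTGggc
Rab25: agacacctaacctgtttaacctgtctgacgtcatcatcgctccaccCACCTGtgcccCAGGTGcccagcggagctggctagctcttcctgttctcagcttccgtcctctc
Cldn7: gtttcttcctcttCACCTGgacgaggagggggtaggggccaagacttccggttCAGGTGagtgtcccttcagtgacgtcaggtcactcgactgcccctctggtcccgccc
Of the 17 epithelial genes 12 had a window of upstream letters and 9 of these held an E-box in at least 1 window; Marveld2, Bspry and Kdf1 held none. The 3 shown were picked for holding several. In these stretches Ap1m2 held 4 such E-boxes and the others 2 each. Cldn7 has another RefSeq start, whose window held none. In the 250 bases before the start, an E-box stood in 2234 of 11409 tested genes (19.6%), in 25 of 76 higher genes with a sequence (32.9%) and in 43 of 192 lower ones (22.4%). No value here shows whether Zeb1 binds these letters.

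In the fixed list of cadherins and junctions 2 of 28 genes, Cldn7 and Ocln, were apart and higher, and 1, the protocadherin Pcdh19, was apart and lower (-1.04), with a median of 0.32. The placental cadherin Cdh3 (0.96) and the plakophilin Pkp2 (0.71) were on the higher side short of 2-fold, and the junction scaffold gene Tjp1 was not (-0.22).

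Some genes of contractile actin filaments that belong to smooth muscle were higher. Tagln (SM22), an actin-binding protein, read 132 and 165 in experiment 1, 168 and 199 in experiment 2, and 767 and 789 in experiment 3. Myl9, a regulatory light chain of myosin, read 132 and 139 in experiment 1, 192 and 152 in experiment 2, and 719 and 725 in experiment 3. Calponin (Cnn1) read 55.2 and 65.4 in experiment 1, 42.3 and 61.8 in experiment 2, and 268 and 294 in experiment 3. No array of experiment 3 overlapped the others, and the differences were 2.14 ± 0.15, 2.13 ± 0.18 and 2.05 ± 0.12. The smooth muscle actin Acta2, their usual companion, was not higher, at 429.8 to 567 in experiments 1 and 2 against 374 and 381 in experiment 3 (-0.39 ± 0.14). Cardiac actin (Actc1) ran at 12.1 to 22.8 in experiments 1 and 2 against 123 and 114 in experiment 3 (2.05 ± 0.19). Its mean in experiments 1 and 2 was 16.7, below the filter signal of 20.14, so Actc1 passed the filter only through experiment 3. The size of its difference depends on the added constant, at 2.8 with a constant of 1 and 1.18 with 64. Of 21 tested genes of the contractile list 3 were apart and higher and 0 lower, beside 0.726% and 1.73% over all genes. The median was 0.39 (0.24 without the control array of experiment 3). The list was known from earlier results of these data to contain genes high in experiment 3.

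A few matrix genes were lower, and most were not apart. Postn, the matricellular protein periostin, read 228 and 282 in experiment 1, 204 and 320.4 in experiment 2, and 32.7 and 21.9 in experiment 3 (-2.66 ± 0.25). The basement membrane linker Nid1 ran at 511 to 533 in experiments 1 and 2 against 229.9 and 214 in experiment 3 (-1.19 ± 0.04), the collagen chaperone Serpinh1 at 1106 to 1904 in experiments 1 and 2 against 573 and 570.3 in experiment 3 (-1.35 ± 0.22) and the collagen gene Col1a2 at 491 to 514 in experiments 1 and 2 against 229 and 228 in experiment 3 (-1.08 ± 0.02). Of 27 integrin and matrix genes 3 (with Tnc at -1.10) were apart and lower and 0 higher, with a median of -0.26. Over all genes 1.73% were lower and 0.726% higher. The mean of Tnc in experiment 3 was 19.7, below the filter signal of 20.14, so Tnc passed the filter only through experiments 1 and 2. Lamb1, a laminin chain, lay higher short of 2-fold, at 1266 to 1408 in experiments 1 and 2 against 2011 and 1819.9 in experiment 3 (0.53 ± 0.07), and Hspg2 and Sdc1 differed by 0.36 and 0.31. Of 17 genes of fibroblasts and mesenchyme 2 were apart and lower and 0 higher, with a median of -0.38. The summed signal of these fibroblast markers was 10024 to 10653 on the 4 arrays of experiments 1 and 2 and 8281 and 7910.0 in experiment 3. Most of this sum came from Vim and Ccn2. Vim ran at 3281 to 3965 in experiments 1 and 2 against 2747 and 2726 in experiment 3. Ccn2 ran at 2923 to 3103 against 2828 and 2615. Thy1, Ccn1 and S100a4 differed the other way, by 0.66, 0.48 and 0.16.

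Prickle1, a cytoplasmic protein of planar cell polarity, had the highest difference of all genes apart. It read 56.1 and 58.8 in experiment 1, 48.9 and 54.7 in experiment 2, and 502 and 472 in experiment 3, 7.12-fold higher (2.83 ± 0.08), and a dimmer probe set differed by 0.49. Of 21 tested planar polarity genes it was the 1 apart, with a median of -0.03. The next highest, the Wnt receptor gene Ror1, ran at 300.3 to 358 in experiments 1 and 2 against 610.0 and 591 in experiment 3, without overlap and short of 2-fold (0.86 ± 0.10), and Prickle2, Vangl2 and Celsr1 differed by -0.54, 0.05 and 0.30. Porcn, the acyltransferase that Wnt ligands need for secretion, ran at 389.7 to 539.5 in experiments 1 and 2 against 61.2 and 74.8 in experiment 3 (-2.47 ± 0.18). Among 12 Wnt targets 3 were apart and lower (1.73% over all genes), Sp8, the cyclin gene Ccnd2 at -1.47 and Tnfrsf19 at -1.13. The general target Axin2 differed by -0.47, and the median was -0.06.

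Cbr3, a carbonyl reductase induced through the oxidant-responsive factor NRF2, read 305 and 443 in experiment 1, 328 and 578 in experiment 2, and 2296 and 2447 in experiment 3. That is 5.73-fold higher (2.52 ± 0.21), with the lowest array of experiment 3 far above the highest of the others. Nqo1, a quinone reductase and the classic NRF2 target, read 438 and 429 in experiment 1, 439 and 517 in experiment 2, and 1028 and 1092 in experiment 3 (1.19 ± 0.09). Gclm, of glutathione synthesis, differed by 0.46, the glutathione reductase Gsr by 0.55 and Hmox1 by 0.43. Of 20 tested genes of the list 2 were apart and higher, 17 had a positive difference, and the median was 0.30. Over all 14185 genes tested, 6265 had a positive difference and 0.726% were apart and higher.

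In amino acid metabolism, 4 of 23 genes were apart and lower and 0 higher (1.73% and 0.726% over all genes), with a median of -0.26. These were Chac1, a glutathione-degrading enzyme, at 2598 to 3172 in experiments 1 and 2 against 828 and 741 in experiment 3 (-1.84 ± 0.11), the stress factor Ddit3 (CHOP) at 671 to 832 in experiments 1 and 2 against 221 and 217 in experiment 3 (-1.69 ± 0.09), Atf5 at -1.38 and Trib3 at -1.05. All 4 are known targets of ATF4 signalling. The biosynthetic targets of the same factor differed less, with asparagine synthetase (Asns) at -0.41, Psat1 at -0.16 and Phgdh at 0.15.

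Central metabolism differed little. Of 25 glycolysis and hypoxia genes 1, the regulator Pfkfb3, was apart and higher (1.03), with a median of -0.12. The neuronal glucose transporter Slc2a3 read 11308 and 10527 in experiment 1, 11226 and 11202 in experiment 2, and 5639 and 5708 in experiment 3, without overlap and just short of 2-fold (-0.96 ± 0.04). Of 21 genes of oxidative phosphorylation and of 25 of sterol and fatty acid synthesis 0 were apart, with medians of -0.07 and -0.04. Replication genes (28, median -0.04) and mitosis genes (27, median -0.14) had 0 apart as well. Of 21 p53 targets 1, the kinase gene Plk2, was apart and higher (1.03), Cdkn1a (p21) differed by 0.69, and the median was 0.23.

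The FGF and ERK, BMP and Nodal, and Notch lists held from 0 to 2 genes apart. Over all genes 1.73% were apart and lower and 0.726% apart and higher. Of 22 FGF and ERK feedback genes 1, the FGF antagonist Il17rd, was apart and lower (-1.33), while Spry1 and Egr1 differed by 0.72 and 0.87, and the median was 0.06. In the BMP and Nodal list 2 of 16 were apart and lower, the inhibitory Smad6 at -1.65 and the activin subunit Inhbb at -1.26. The mean of Smad6 in experiment 3 was 16.85, below the filter signal of 20.14. Smad6 thus passed the filter only through experiments 1 and 2, and the size of its difference depends on the added constant. Id1 and Id3 differed by 0.34 and 0.60, and the list median was -0.03. None of 15 Notch genes was apart (median 0.12), with the progenitor factor Hes6 at 0.89.

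Markers of other lineages the cultures could hold were examined in the same way. Primitive streak and mesoderm (9 of 24 tested, median 0.05), endoderm (15 of 20, median 0.02), and neural crest and surface ectoderm (13 of 17, median -0.08) had 0 genes apart. Over all genes tested 0.726% were apart and higher and 1.73% apart and lower. A count of 0 in lists this small therefore says little about these lineages. In the trophoblast and keratin list 1 of 9 was apart and higher (Krt18) and 1 lower (Tfap2c at -1.85), with a median of 0.15. Of 23 imprinted genes 1, Peg10, was apart and higher (1.32). Of 14 germline genes 1, Hormad1, was apart and lower (-1.12), and the medians of these lists were -0.12 and -0.33 (the latter -0.12 without the control array of experiment 3). The list of Y-linked genes with Xist and Tsix (5 tested, median -0.43) and that of stress and interferon genes (13 tested, median -0.08) had 0 apart.

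**Figure D5:**
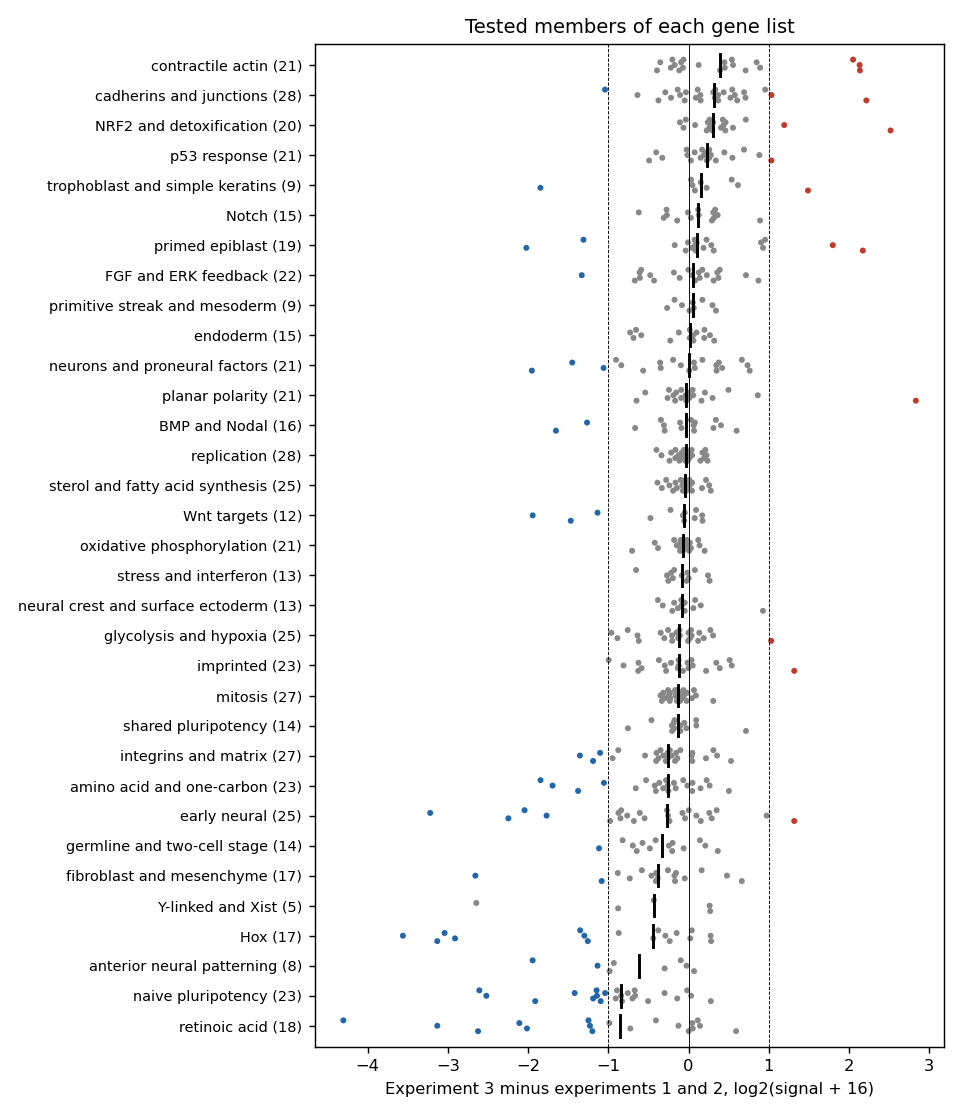
Difference of experiment 3 from experiments 1 and 2 (log2, horizontal axis) for every tested member of 33 gene lists, with the number tested in brackets, a black bar at each list's median and dashed lines at 2-fold. The retinoic acid and naive pluripotency lists lie lowest, with medians of -0.86 and -0.84. With the filter at the 50th percentile, Hox (-2.98) and anterior neural patterning (-1.13) lay below retinoic acid (-1.09). Contractile actin, cadherins and junctions, and NRF2 targets lie highest, at 0.39, 0.32 and 0.30. The order of these 3 turns without the control array of experiment 3, where they are 0.24, 0.30 and 0.38.

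The rest of the most different genes have mixed roles. Among the 15 highest were Spon1, a spondin of the floor plate (2.23, with another probe set at -0.18), the calcitonin receptor gene Calcr at 25.5 to 46.1 in experiments 1 and 2 against 206 and 195 in experiment 3 (2.14 ± 0.18), the potassium channel gene Kcnh8 (1.98) and Fam184b (2.13). Among the 15 lowest were Ndnf, a secreted neurotrophic factor, at 459.6 to 778 in experiments 1 and 2 against 101 and 85.0 in experiment 3 (-2.57 ± 0.26), the kinase inhibitor Camk2n1 (-2.31, with another probe set at -0.16) and the predicted gene Gm20767 (-2.66). Gm20767 read 5.41 and 3.79 in experiment 3, below the filter signal of 20.14. It passed the filter only through experiments 1 and 2, and the size of its difference depends on the added constant. A second probe set was measured for 39 of the 103 higher genes and 109 of the 245 lower ones. It had the same sign in 33 and 98 of them and passed 2-fold the same way in 12 and 48, and in 0 it passed 2-fold the opposite way.

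The response to Dox in experiment 3 was set against that in experiments 1 and 2 by an interaction term. This does not use the sum that set experiment 3 apart. Experiment 3 has 1 array per treatment, so the model fits it exactly and the residual spread comes only from experiments 1 and 2. The p-values therefore cannot measure how far the response of experiment 3 itself would vary. The main model held no term for experiment 1 against 2. Taking single arrays, 33, 35 and 101 genes differed 2-fold between GemKD and control in experiments 1, 2 and 3. In limma, 2 of 14185 genes (0.0141%) had a Benjamini-Hochberg adjusted p under 0.05 for the interaction, and 1529 had an unadjusted p under 0.05. Both calls rest on 1 value each. Atxn10 read 19116 on the control array of experiment 3 and from 4497 to 4810 on the other 5 (limma interaction -2.05 ± 0.07, adjusted p = 1.78e-05), while its next brightest probe sets differed between the experiments by -0.07 and 0.09. Bhlhe23 read 11699.9 on the GemKD array of experiment 3 and from 2.84 to 25.5 elsewhere (limma interaction 8.76 ± 0.58, adjusted p = 0.00172), and has no other probe set. The next genes by p, Tmem259, Ak7 and Trim27, did not pass, with limma interactions of 0.66 ± 0.09, -1.52 ± 0.25 and 0.54 ± 0.09 and adjusted p of 0.313, 0.395 and 0.395.

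The test had few residual degrees of freedom. It called 503 genes with the control array of experiment 1 left out, 304 without that of experiment 2, and 0 with no intensity trend.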

How the data were processed

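RNA of 6 cultures was read on Affymetrix Mouse Genome 430 2.0 arrays. The authors deposited a linear intensity for each of 45037 probe sets on each array. How these intensity values were normalized and corrected for background was not stated in the labels or file headers. They were used as deposited, and their precision is limited by the number of arrays.

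The platform annotation gave 34945 probe sets exactly 1 gene symbol (18193 genes), 932 several and 9160 none. A gene was represented by its brightest probe set and tested where the mean signal exceeded 20.14, the 30th percentile over probe sets (14185 genes). Arrays were grouped by experiment and treatment from their titles.

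Log2(signal + 16) was fitted with limma 3.58.1 in R 4.3.3, with treatment as covariate, and the difference of experiment 3 was given with its SE and no p. The interaction of treatment with experiment 3 was tested with eBayes (intensity trend, two-sided, Benjamini-Hochberg over all genes, threshold 0.05). The experiment number in the titles pairs GemKD with control. Deviations from the group means correlated within the pairs with 0.489, 0.472 and 0.714. Experiment 3 stood apart in both groups and shifts both group means. The values for experiments 1 and 2 therefore do not show by themselves that their arrays are paired.

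The members and the 33 gene lists (756 entries, 695 with a probe set) were chosen with earlier results of these data known. Named genes were 7 markers (Nanog, Stra8, Meis2, Fgf5, Otx2, Prickle1 and Cbr3), 10 anchors (Gmnn, Pou5f1, Sox2, Sox1, Pax6, Zfp42, Klf4, Nes, Cdh1 and Cdh2), the 15 highest and 15 lowest genes apart with a mean signal of at least 100 in the higher set, the 5 largest differences of each list, and the 5 smallest interaction p. All further genes were picked with their values in view. Alternatives concerned the added constant, the filter, quantile normalization, the mean of all probe sets, the fold limit, single experiments or treatment arms, a block for the experiment, the intensity trend, and each array left out. Motifs were searched in RefSeq promoter windows (GRCm38.p6), in the 250 bases upstream only.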

Additional observations from a re-analysis of the deposited data

Results flagged for a closer look

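Atxn10 was singled out because its difference between GemKD and control in experiment 3 departed from that in experiments 1 and 2 by the limma interaction test (-2.05 on the log2 scale, adjusted p = 1.78e-05). The departure comes from 1 control array at 19116. With the mean of all its probe sets the adjusted p was 0.619, and over all alternatives it ranged from 2.05e-13 to 0.619.

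Bhlhe23, a basic helix-loop-helix factor gene, was singled out by the same limma test (8.76, adjusted p = 0.00172), through 1 GemKD array at 11699.9. Its adjusted p ranged from 1.7e-11 to 0.45 over the alternatives. It has a single probe set, so that no second measurement exists on these arrays.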

How the results depend on the processing

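The direction of the split, with more lower than higher genes, was the same under every alternative run. The counts of genes apart (103 higher and 245 lower) were within 1.5 times under quantile normalization (111 and 230), either filter, the mean of all probe sets (71 and 174), experiment 1 or 2 alone and the control arrays alone. They moved further with an added constant of 1 (157 higher) or 64 (44 and 116), a limit of 1.5-fold (401 and 878) or 4-fold (12 and 27), and in the GemKD arrays alone (156 higher). Leaving out each array in turn gave 86 to 155 higher and 235 to 296 lower genes, with the 155 found without the control array of experiment 3. Under quantile normalization 102 of the 103 and 222 of the 245 genes were again apart. The interaction test called 2 genes, and again 2 with the experiment as replicate block. It called 1 with an added constant of 1, with no filter and with the mean of all probe sets, and 0 with no intensity trend (1434 at an unadjusted p under 0.05, limma). Leaving out an array of experiments 1 or 2 gave from 2 to 503 calls, with 503 and 304 without the control arrays of experiments 1 and 2. Leaving out an array of experiment 3 leaves no interaction to fit. The Hox median moved from -0.44 to -2.98 with the filter at the 50th percentile, where fewer dim genes are left. Medians near 0 changed sign under some settings in the lists of neurons, primitive streak, endoderm, planar polarity, Wnt targets, BMP and Nodal, sterol synthesis and replication; that of Y-linked genes with Xist ran from -1.54 to 0.23 around -0.43. Among list medians of at least 0.1 in size, several moved over 1.5 times with 1 array left out. Without the control array of experiment 3 they were contractile actin (0.39 to 0.24), germline (-0.33 to -0.12) and trophoblast and keratins (0.15 to 0.25). Without its GemKD array they were trophoblast and keratins (0.06), Hox (-0.44 to -0.18) and primed epiblast (0.10 to 0.18). Notch (0.12) was 0.07 without the control array of experiment 1 or the GemKD array of experiment 2. Imprinted genes moved from -0.12 to -0.07 without the control array of experiment 1, and early neural genes from -0.27 to -0.43 without that of experiment 2. The cause of these shifts was not tested. Depth on arrays is signal over background: of the genes apart, 5 higher and 22 lower ones were below the filter signal on all arrays of their lower side.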

Other observations

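Some genes of meiosis and the germ line other than Stra8 were among the 245 lower genes, from which they were picked with their values in view. They were Sohlh2, a germ cell transcription factor (-1.70), the cohesin genes Smc1b (-1.26) and Rec8 (-1.01), and the recombination genes Rec114 (-1.13) and Meiob (-1.07). Rec8 ran at 287 to 371 in experiments 1 and 2 against 147 and 165 in experiment 3. In the fixed germline list 1 of 14 genes was apart and lower, and Tdrd1, Sycp3 and Eif1a differed the other way, by 0.37, 0.21 and 0.14. Single genes picked in the same way were Epha4 (-1.54), Epha7 (-1.51) and the ephrin gene Efnb1 (-1.56), while Epha1 was apart and higher (1.68) and Epha2 differed by -0.59; the family was not counted. Among neural patterning factors outside the lists, Gbx2, of the anterior hindbrain, ran at 2027 to 2608 in experiments 1 and 2 against 839 and 739 in experiment 3 (-1.53 ± 0.08), and Dmrta2 and Gli2 differed by -1.54 and -1.29.

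The transcript of the Rosa26 locus (Gt(ROSA)26Sor) ran at 332 to 366 in experiments 1 and 2 against 795 and 671 in experiment 3, a difference of 1.03 ± 0.07. Of the 16 genes that parted experiments 2 and 1, experiment 3 lay nearer experiment 1 for 8 and nearer experiment 2 for 8. Most of the 16 were dim on all arrays. Of 5375 probe sets above the filter without a single gene symbol, 32 (0.595%) were apart and higher in experiment 3 and 40 (0.744%) apart and lower.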
